A study of Mus musculus with 32 samples.

Results

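The genes described here encode the enzymes of glycolysis and glycogen metabolism in the denervated gastrocnemius (GAS) muscle of the mouse. The rule names 36 members out of 33397 genes in the table and uses no measured value, although the list was made with earlier results of these data known. All 36 were found and all 36 passed the filter on low values. RNA was sequenced from whole GAS muscles of male C57BL/6 mice (C57BL/6J in the study's methods) whose left sciatic nerve had been cut and a piece of it removed, in 8 groups of 4 samples taken 0, 1, 3, 5, 7, 14, 21 or 28 d later. The labels list nerve transection and denervation for every sample, the 0 d samples included, whereas the study's methods describe sham mice that kept the nerve, and the 0 d columns are headed C. The 0 d samples were therefore taken as the control. The study describes its samples as biologically independent, while the labels do not say which mouse each came from, and p-values measure the spread between these samples.

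A skeletal muscle burns glucose that arrives from the blood and glucose that it has stored as glycogen. Glycogen phosphorylase, switched on by phosphorylase kinase, cuts glucose units from the store, and glycolysis splits each into pyruvate, which lactate dehydrogenase can reduce to lactate. Fast fibres, which make up most of the mouse GAS, rely heavily on this route. Several steps are carried by an isozyme that is typical of muscle (for instance muscle phosphofructokinase, Pfkm, or beta-enolase, Eno3) beside isozymes that are typical of liver, brain or dividing cells.

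The unit was FPKM, the fragments of a gene scaled by the length of its exons and by the total of its library. Levels of different genes can be compared per length only roughly. The length takes in all annotated exons of a gene and can exceed that of the transcripts present. Fragments recovered from the table ranged from 14199920 to 17561606 per sample. The muscle markers showed muscle: Acta1, the skeletal actin, had a mean FPKM of 13883 at 0 d. The extraction notes in the labels speak of retinas, but the summed FPKM of 5 retina markers was at most 0.20 at 0 d. The 7 fibre markers summed to between 40402 and 43187 FPKM at 0 d and to between 24222 and 27399 at 28 d, although the means of Myh1, a fast myosin (501 and 918), and Actn3, the actinin of fast fibres (1865 and 2924), were higher at 28 d. Over the same time, 8 macrophage markers went from between 125 and 180 FPKM to between 268 and 909 at 3 d and to between 389 and 466 at 28 d, and 3 satellite cell markers from between 7.79 and 11.4 to between 87.6 and 110 at 28 d. Nearly all of the latter sum was Myod1, with a mean of 7.88 at 0 d and 94.6 at 28 d, while Pax7 was at 0.61 and 0.95 and Myf5 at 1.22 and 2.57. In bulk tissue, fewer fibres and less RNA per fibre cannot be told apart, and the part of these shifts in the results below was not tested. One of the libraries at 3 d (replicate 1, numbered in column order) stood apart from the rest of its group. Its score on the first principal component, which held 41.3% of the variance, was -20.3, against 0.18 to 5.96 in the other 3 libraries.

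The 36 genes took up a large part of the RNA of the control muscle and a much smaller part of that of the denervated one. At 0 d they held 3.36% ± 0.054 (SD, n = 4) of all fragments. The share was 2.90% ± 0.15 at 1 d and 1.91% ± 0.21 at 3 d. Samples of 5 d held 1.72% ± 0.018 and those of 7 d 1.53% ± 0.079. It was 1.46% ± 0.028 at 14 d, 1.61% ± 0.024 at 21 d and 1.39% ± 0.10 at 28 d. All samples from 1 d on lay below all samples of 0 d. Most of the drop was reached by 3 d, and the share at 21 d stood a little above those at 14 and 28 d.

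**Figure D1:**
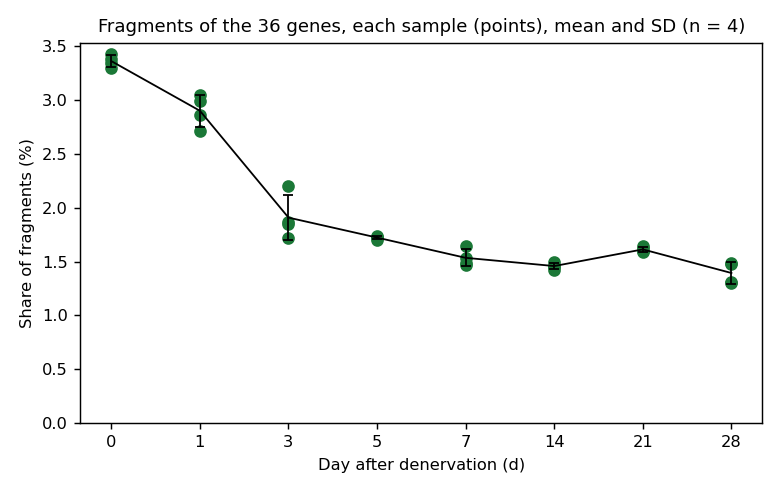
Share of all fragments (percent) held by the 36 glycolysis and glycogen genes, by day after denervation, with days evenly spaced. Points are single samples, the line joins group means and bars are the SD (n = 4); the share went from 3.36% at 0 d to 1.39% at 28 d.

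Each day was then compared with 0 d by limma on log2(FPKM + 1), with 22071 genes tested. A gene was called when its p, adjusted by the method of Benjamini and Hochberg, was under 0.05 and it changed at least 1.5-fold. Log2 fold changes are given on the log2(FPKM + 1) scale, so that those of low genes are understated.

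At 1 d, 4 members were called higher and 4 lower. Of all genes tested, 6.34% were called higher and 2.49% lower. At 3 d the members stood at 4 higher and 16 lower, beside 13.2% and 6.03% of all genes, and at 4 and 18 without the library that stood apart. At 5 d 2 were higher and 18 lower, beside 14.9% and 3.86%. At 7 d 1 was higher and 19 lower, beside 15.4% and 4.1%.

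The later days looked much like 7 d. At 14 d 1 member was higher and 21 were lower, beside 14.6% and 3.83% of all genes. At 21 d the counts were 1 and 20, beside 11.8% and 3.93%, and at 28 d they were 1 and 24, beside 14.2% and 4.1%. The median log2 fold change of the members went from -0.05 at 1 d to -0.45 at 3 d and -0.90 at 28 d, where the medians over all genes were 0.03, 0.06 and 0.14. From 3 d on, then, between 16 and 24 of the 36 members were called lower, where at most 6.03% of all genes were. Of the 22071 genes tested, 11943 had a mean FPKM of 1 or more. The pseudocount makes a lower call hard or impossible for the low genes. Most members lay at higher levels, so the shares of all genes are not a like comparison.

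Of the 36 members, 15 were called lower at every day from 3 to 28 d. They were Pfkm, Tpi1, Gapdh, Pgam2, Eno3, Ldha and Ldhb of glycolysis, Phka1, Phkg1, Gys1 and Ppp1r3a of glycogen metabolism, and Pfkfb1, Pfkfb3, Gpd1 and Gpd2. Among them, 4 were already called lower at 1 d: Pgam2, Gys1, Ldhb and Pfkfb1. With quantile normalization Pgam2 at 1 d was at -0.55 on the log2 scale, just short of 1.5-fold. With the median-ratio scaling Phkg1, Gpd1, Gpd2, Tpi1 and Pfkfb3 were called lower at 1 d as well, so that 9 members were lower at all 7 days. A set of 8 was called at no day, namely Hk1, Pfkl, Pfkp, Aldoc, Eno1, Eno2, Pygb and Pygm. With a pseudocount of 0.1 in place of 1, Eno2 was called higher at 3, 5, 7, 14 and 28 d and Pfkl at 5 and 7 d. Another 4, Ugp2, Ppp1r3c, Pfkfb4 and Fbp2, were called in both directions, higher early and lower late. No member was called higher at all 7 days. How many of all genes were called over several days in these ways, or at no day, was not counted. These counts of members are therefore descriptions only.

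**Figure D2:**
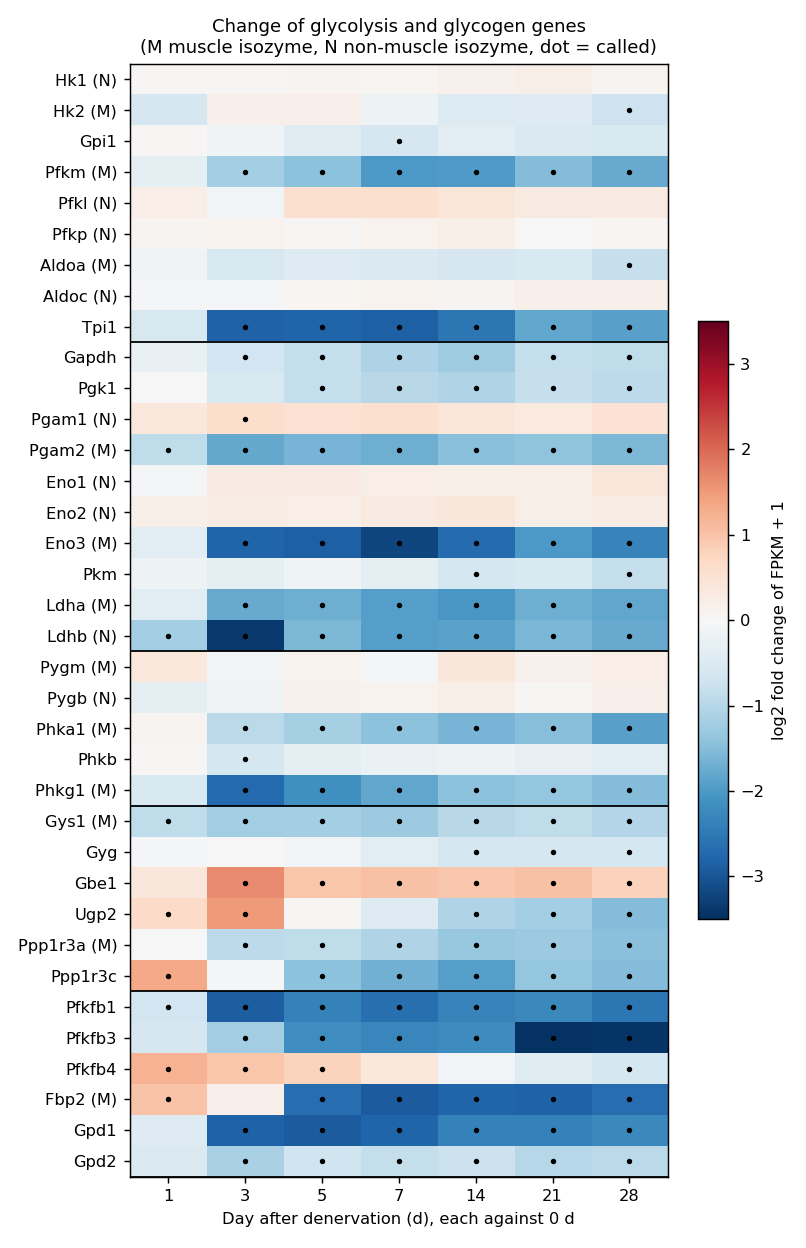
Log2 fold change of FPKM + 1 (colour) of each member (rows, grouped by role) at each day against 0 d (columns), with a dot where the member was called and M or N for the isozymes typical of muscle or not. Blue, lower levels fill the rows of most muscle isozymes from 3 d on, while Gbe1 stays red and Ppp1r3c, Fbp2, Pfkfb4 and Ugp2 turn from red to blue.

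The total of the deposited values shifted between days. Among the 11943 genes whose mean FPKM was 1 or more, the median log2 fold change was 0.12 at 1 d, 0.20 at 3 d and between 0.24 and 0.32 from 5 d on. With a scaling that set this median near 0 (the median-ratio method), the counts of higher and lower members became 3 and 10 at 1 d, 3 and 18 at 3 d, 1 and 21 at 5 d and 1 and 24 at 7 d. They were 0 and 25 at 14 d, 1 and 26 at 21 d, then 0 and 26 at 28 d. No value called with the deposited FPKM changed direction with this scaling. The shares of all genes called higher or lower with it were not counted, so these counts of members have none beside them.

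The promoters of the 4 members that were called lower at all 7 days with the deposited FPKM are shown because these genes were lower from the first day to the last. The windows are the 250 bases before a RefSeq start (GRCm38.p6), each 5′ to 3′ on the strand of its gene. Capitals mark matches to CAGCTG, the E-box that muscle regulatory factors of the MyoD family can bind, and to the MEF2 consensus, an AT-rich site of another family of muscle factors. Of the 4 windows of Pfkfb1, those with a match are shown.
Pgam2, chr11:5803797-5804046, minus strand: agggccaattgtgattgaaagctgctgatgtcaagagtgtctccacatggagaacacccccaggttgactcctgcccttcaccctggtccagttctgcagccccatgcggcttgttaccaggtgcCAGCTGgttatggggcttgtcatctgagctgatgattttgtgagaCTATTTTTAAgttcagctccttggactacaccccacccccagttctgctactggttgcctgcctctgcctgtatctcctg
Gys1, chr7:45434589-45434838, plus strand: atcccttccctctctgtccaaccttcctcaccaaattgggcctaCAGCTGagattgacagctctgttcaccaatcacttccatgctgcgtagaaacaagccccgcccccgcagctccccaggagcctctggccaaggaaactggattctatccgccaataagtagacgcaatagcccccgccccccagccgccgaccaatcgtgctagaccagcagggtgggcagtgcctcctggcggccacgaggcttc
Pfkfb1, chrX:150587993-150588242, plus strand: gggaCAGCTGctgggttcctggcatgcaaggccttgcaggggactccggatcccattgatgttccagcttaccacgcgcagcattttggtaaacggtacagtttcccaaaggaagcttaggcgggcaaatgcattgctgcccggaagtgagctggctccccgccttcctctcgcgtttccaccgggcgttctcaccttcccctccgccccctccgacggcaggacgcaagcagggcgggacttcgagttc
Pfkfb1, chrX:150589666-150589915, plus strand: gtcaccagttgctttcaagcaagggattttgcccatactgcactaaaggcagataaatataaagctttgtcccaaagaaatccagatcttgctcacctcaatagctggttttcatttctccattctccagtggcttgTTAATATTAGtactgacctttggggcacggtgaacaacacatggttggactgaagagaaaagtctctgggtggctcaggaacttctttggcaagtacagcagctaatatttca
Ldhb, chr6:142507958-142508207, minus strand: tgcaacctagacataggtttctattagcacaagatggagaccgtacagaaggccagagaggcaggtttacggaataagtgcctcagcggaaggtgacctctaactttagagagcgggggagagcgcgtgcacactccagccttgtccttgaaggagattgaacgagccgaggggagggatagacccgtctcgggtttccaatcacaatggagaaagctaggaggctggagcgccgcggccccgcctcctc

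Matches were counted on both strands. CAGCTG was present in 13.0% of all 32851 promoter windows of the table and in 11 (21.2%) of the 52 windows of the 35 members that had one. The MEF2 consensus was in 2.92% of all windows and in 3 (5.77%) of the member windows, 1 each of Pfkfb1, Pgam2 and Ppp1r3a. ACGTG, the core that hypoxia-inducible factors bind, was in 16.6% of all windows and in 17 (32.7%) of the member windows, which belonged to 14 members. TCAGGTT, a further motif searched, was in 3.49% of all windows and in 1 member window, that of Pfkl. These counts are descriptions of letters in the windows.

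The first phase of glycolysis, from hexokinase to triosephosphate isomerase, was led by Tpi1, which interconverts the pair of trioses that aldolase makes (ENSMUSG00000023456, chromosome 6, 124810586 to 124814296, GRCm38). At 0 d its FPKM was 832, 804, 714 and 784. At 3 d it was 110, 135, 95.3 and 99.5. The groups did not overlap, and the log2 fold change was -2.83 (SE 0.12, limma adjusted p = 1.6e-17). At 28 d the values were 200, 184, 233 and 223, between the 3 d and the 0 d levels (log2 fold change -1.90, SE 0.12).

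Pfkm, the muscle subunit of the enzyme that commits glucose to glycolysis, fell more slowly. Its FPKM was 961, 1048, 1168 and 1067 at 0 d, and 510, 493, 410 and 450 at 3 d. The lowest mean was reached at 7 d, at 264 ± 12.9 (SD, n = 4). The log2 fold change at 14 d was -1.97 (SE 0.07). At 28 d the samples read 294, 291, 314 and 356. All samples from 1 d on were below all of 0 d, though the change at 1 d was under 1.5-fold. Of the exon bases of Pfkm, 341 are shared with another gene model on the same strand.

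The other phosphofructokinase subunits were scarce. Pfkl, the liver subunit, had a mean FPKM of 2.06 ± 0.10 at 0 d, 3.52 ± 0.22 at 5 d and 3.56 ± 0.47 at 7 d, and 2.83 ± 0.17 at 28 d, and all its samples from 5 to 28 d lay above the 0 d range. Pfkp, the platelet subunit, had 1.49 ± 0.16 at 0 d and 1.62 ± 0.14 at 28 d, and its samples overlapped with 0 d at every day. Neither was called at any day with all samples and the pseudocount of 1.

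Hk2, the hexokinase of insulin-responsive tissue that traps glucose as its phosphate, had a mean FPKM of 71.1 ± 10.4 at 0 d, 47.2 ± 4.8 at 1 d and 80.5 ± 7.7 at 3 d. At 28 d its level was 42.0, 41.2, 40.3 and 47.3, and this was the only day at which it was called (log2 fold change -0.71, SE 0.08), although with the median-ratio scaling it was also called at 1, 14 and 21 d. Hk1, the form found in most tissues, kept to means between 2.5 and 3.01. Gpi1, the isomerase of the second step, was called at 7 d alone (log2 fold change -0.60, SE 0.08), and with the median-ratio scaling at 5, 14, 21 and 28 d as well.

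Aldoa, the muscle aldolase that cleaves fructose bisphosphate, had the highest mean level of all members at 0 d, with an FPKM of 2736, 2673, 2761 and 2540. At 28 d it was 1419, 1451, 1696 and 1610, and this was the only day at which it was called (log2 fold change -0.80, SE 0.08). With the median-ratio scaling it was called lower from 3 d on, and with quantile normalization its change at 28 d was -0.43. Aldoc, the brain aldolase, had means between 0.088 and 0.27 and was at 3 fragments or fewer in 3 samples.

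The symbol Aldoa stands on 2 rows of the table. The second, ENSMUSG00000114515 (chromosome 7, 126800790 to 126809108, minus strand), ends 38 bases upstream of the main row, ENSMUSG00000030695 (126795234 to 126800751), and has 799 exon bases. Its last exon, 126800790 to 126800994, begins at the base where the Aldoa gene of RefSeq also begins on this strand, so that the row overlaps that gene. It was left out of the counts of members. Its FPKM was 70.7, 69.8, 72.1 and 66.4 at 0 d, and 37.7, 37.4, 33.6 and 36.2 at 1 d. At 3 d it was 1.31, 1.12, 1.08 and 2.67, a log2 fold change of -4.84 (SE 0.20) that was larger than that of any member.

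Relative to the main Aldoa row, the upstream row stood at 2.61% ± 0.013 (SD, n = 4) at 0 d. This was 1.48% ± 0.091 at 1 d and 0.086% ± 0.045 at 3 d. Later it was 0.47% ± 0.064 (7 d) and 0.69% ± 0.065 (28 d). The row thus fell to near zero at 3 d while Aldoa itself kept a mean FPKM of 1820 ± 231. Which transcripts lie behind it was not tested.

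**Figure D3:**
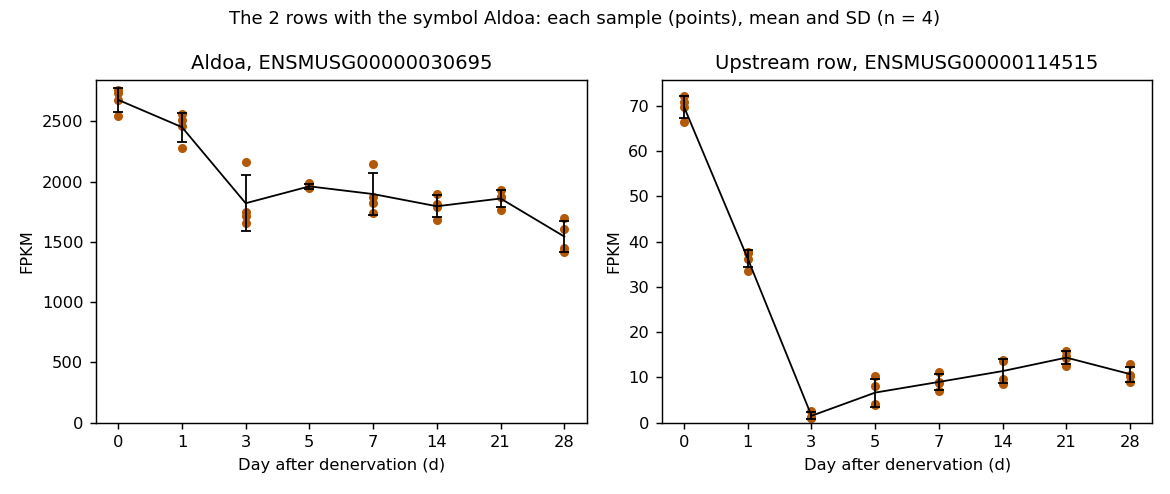
FPKM of the main Aldoa row (left) and of the upstream row ENSMUSG00000114515 (right), by day after denervation, with days evenly spaced and both axes from 0. Points are single samples, lines join group means and bars are the SD (n = 4); the left row went from 2677 at 0 d to 1820 at 3 d, the right one from 69.7 to 1.54.

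In the second phase of glycolysis, in which ATP is gained, 5 of 10 members were called lower at 3 d and 7 at 28 d, beside 6.03% and 4.1% of all genes. Eno3, the muscle enolase, had an FPKM of 2681, 2593, 2561 and 2587 at 0 d and was second only to Aldoa. At 3 d it was 419, 381, 330 and 371, a log2 fold change of -2.80 (SE 0.13). The lowest mean was 287 ± 61.7 at 7 d (log2 fold change -3.21, SE 0.13). At 28 d the samples were 424, 409, 630 and 620. No sample after 0 d reached the 0 d range.

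Pgam2, the muscle phosphoglycerate mutase, whose promoter above holds both motifs, had an FPKM of 1632, 1686, 1599 and 1314 at 0 d. At 1 d it was already down to 854, 850, 877 and 795 (log2 fold change -0.88, SE 0.08), and at 3 d it was 422, 477, 434 and 451. From there it held nearly level, at 492, 487, 515 and 618 at 28 d (log2 fold change -1.56, SE 0.08).

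The forms of these enzymes found outside muscle kept to low levels. Eno1 had means between 18.2 and 24.9 FPKM, and Eno2, the neuronal enolase, between 0.35 and 0.77. Pgam1 had 9.14, 8.38, 9.49 and 7.88 at 0 d, and 8.60, 18.7, 17.3 and 13.5 at 3 d, when it was called higher (log2 fold change 0.63, SE 0.18, limma adjusted p = 0.00591), though not with the median-ratio scaling (0.41) or quantile normalization (0.35). The low value at 3 d was from the library that stood apart, without which the change was 0.84. Pgam1, Aldoa, Gapdh, Pgk1 and Ldha each have 2 named pseudogenes in the annotation, with which they may share reads.

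Both lactate dehydrogenase genes fell. Ldha, the muscle form, had an FPKM of 816, 737, 758 and 779 at 0 d and 229, 239, 216 and 220 at 3 d (log2 fold change -1.77, SE 0.07), and it was at 205, 196, 245 and 231 at 28 d. Ldhb, the heart form, moved further and in another course. It read 203, 210, 171 and 169 at 0 d, 64.1, 95.6, 88.3 and 78.8 at 1 d, and 11.2, 19.2, 18.1 and 21.3 at 3 d. The log2 fold change at 3 d was -3.39 (SE 0.18), the largest of any member at that day, and -3.20 without the library that stood apart. By 5 d it was back at 70.2, 48.0, 62.1 and 69.9, and at 28 d it was 68.2, 53.2, 47.7 and 51.3. All samples after 0 d lay below the 0 d range.

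Gapdh is the dehydrogenase that starts the energy-yielding phase, and the study's PCR used it as its internal control. In the RNA-seq its FPKM was 194, 194, 200 and 198 at 0 d. It was 143, 127, 108 and 114 at 3 d (log2 fold change -0.68, SE 0.10), 92.5, 88.9, 69.0 and 80.2 at 14 d (log2 fold change -1.25, SE 0.10), and 100, 90.8, 127 and 109 at 28 d (log2 fold change -0.89, SE 0.10). All samples after 0 d were below the 0 d range. Pgk1, the next enzyme, went from a mean of 397 ± 22 at 0 d to 190 ± 14 at 14 d and 211 ± 15 at 28 d. Pkm, the pyruvate kinase, went from 538 ± 39 to 303 ± 17 at 28 d and was called at 14 and 28 d, and with the median-ratio scaling at 7 and 21 d as well. Of its exon bases, 767 are shared with another gene model on the same strand.

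The control of glycolysis through fructose 2,6-bisphosphate, a strong activator of phosphofructokinase, lies with the Pfkfb enzymes, which make and break this molecule. Pfkfb1, the liver and muscle gene, had 16.3, 18.1, 16.7 and 16.7 FPKM at 0 d and 1.25, 1.89, 1.16 and 1.49 at 3 d (log2 fold change -2.88, SE 0.11). It was at 1.94, 1.54, 2.00 and 3.17 at 28 d. Pfkfb3, the inducible form, fell step by step: 74.1, 77.0, 74.3 and 71.7 at 0 d, 32.7, 21.9, 34.4 and 37.8 at 3 d, and 12.5, 16, 18.1 and 14.8 at 14 d. At 28 d it read 5.86, 5.65, 5.56 and 7.14, the largest change of any member at that day (log2 fold change -3.42, SE 0.16).

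Pfkfb4 ran the other way at first. It had 9.36, 9.69, 12.5 and 13.2 FPKM at 0 d and 27.5, 25.5, 28.1 and 27.9 at 1 d (log2 fold change 1.23, SE 0.10). It then went down from day to day, and at 28 d, with 6.67, 6.65, 6.67 and 7.85, it was called lower (log2 fold change -0.60, SE 0.10). At 28 d all 3 genes were therefore below the 0 d range, whereas at 1 d Pfkfb4 was above it and the other 2 below.

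Fbp2, the muscle fructose bisphosphatase, which runs the phosphofructokinase step backwards, had a sharp course. Its FPKM was 25.0, 31.4, 28.4 and 31.6 at 0 d and 69.2, 76.8, 43.0 and 51.3 at 1 d (log2 fold change 0.99, SE 0.16). At 3 d it was 34.5, 32.3, 29.7 and 36.5, overlapping with 0 d. At 5 d it was 3.97, 4.17, 2.70 and 4.14 (log2 fold change -2.67, SE 0.16), and it stayed there, at 5.31, 3.20, 3.01 and 3.53 at 28 d. The mean at 1 d was 19.9 times that at 7 d, the widest range of any member.

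The glycerol phosphate shuttle carries the electrons of glycolytic NADH to the mitochondria. Gpd1, its cytosolic enzyme, had 124, 119, 129 and 124 FPKM at 0 d and 13.3, 15.9, 19.2 and 18.1 at 3 d (log2 fold change -2.84, SE 0.14). At 28 d it was 19.2, 22.4, 28 and 32.3. Gpd2, the mitochondrial enzyme, went from a mean of 30.3 ± 5.0 to 13.2 ± 1.5 at 3 d and 15.2 ± 1.2 at 28 d. Over between 310 and 748 of their exon bases, Gpd1, Gpd2, Gpi1, Pfkp, Phkg1 and Gys1 have a gene model on the opposite strand, and a strand setting of the counting is not given in the sources used here.

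**Figure D4:**
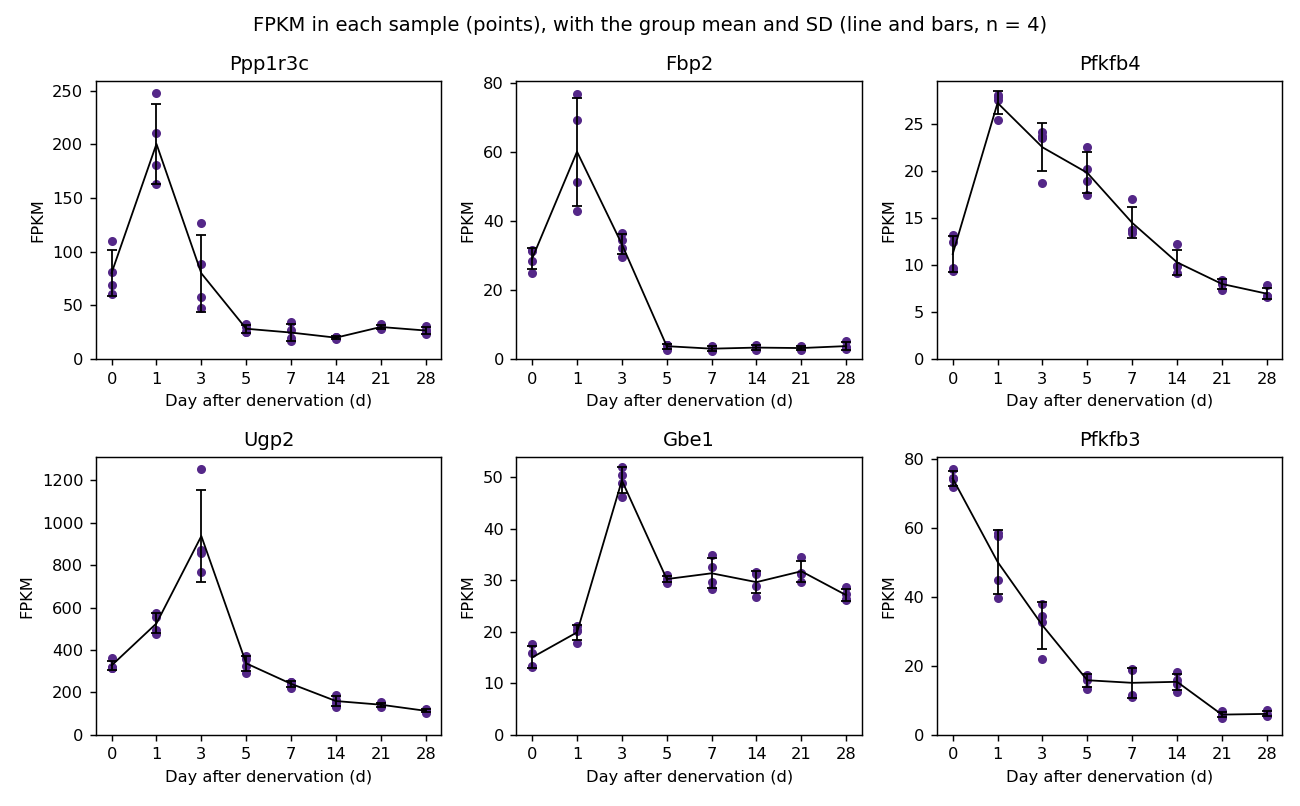
FPKM of Ppp1r3c, Fbp2, Pfkfb4, Ugp2, Gbe1 and Pfkfb3 in each sample (points) by day after denervation, with days evenly spaced, group means (line) and SD (bars, n = 4). Ppp1r3c, Fbp2 and Pfkfb4 peak at 1 d and Ugp2 and Gbe1 at 3 d, while Pfkfb3 falls from 74.3 at 0 d to 6.05 at 28 d.

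Among the genes of glycogen synthesis, Ugp2 makes UDP-glucose, the sugar donor. Its FPKM was 320, 313, 314 and 361 at 0 d, 495, 476, 576 and 555 at 1 d (log2 fold change 0.68, SE 0.11) and 1254, 857, 767 and 871 at 3 d (log2 fold change 1.49, SE 0.11). With the median-ratio scaling the change at 1 d was 0.49, short of 1.5-fold. The value of 1254 was from the library that stood apart, without which the change was 1.34, and the other 3 were also all above the 0 d range. At 5 d the level was back at 372, 358, 326 and 291. At 7 d its samples, at 251, 250.1, 239 and 221, were already all below the 0 d range, though the change was under 1.5-fold (log2 fold change -0.44, and -0.82 with the median-ratio scaling, which called it). The level then sank to 120, 104, 112 and 117 at 28 d (log2 fold change -1.52, SE 0.11).

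Gbe1, the branching enzyme, was the only member called higher from 3 to 28 d. It had 15.9, 17.6, 13.4 and 13.2 FPKM at 0 d and 48.8, 52.0, 46.1 and 50.5 at 3 d (log2 fold change 1.66, SE 0.08). At 28 d it was 27.3, 26.3, 26.1 and 28.7 (log2 fold change 0.82, SE 0.08), still above the 0 d range in every sample. With the median-ratio scaling the change at 28 d was 0.46 on the log2 scale and no longer 1.5-fold.

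Gys1, the muscle glycogen synthase, was down at once. It had 73.5, 83.1, 84.8 and 74.7 FPKM at 0 d, 42.2, 41.8, 40.7 and 43.5 at 1 d (log2 fold change -0.89, SE 0.07), 34.3, 36.7, 30.8 and 31.8 at 3 d and 40.0, 39.8, 32.5 and 42.0 at 28 d. Gyg, glycogenin, the primer of the particle, was called lower from 14 d on, at a mean of 103 ± 4.2 at 28 d against 159 ± 7.4 at 0 d.

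Subunits that bring protein phosphatase 1 to glycogen, where it turns glycogen synthase on, took separate courses. Ppp1r3c rose early: 68.7, 60.8, 81.1 and 110 FPKM at 0 d became 181, 163, 247 and 210 at 1 d (log2 fold change 1.33, SE 0.22, limma adjusted p = 2.23e-05). At 3 d the samples spread widely, at 126, 88.1, 47.2 and 57.5, and at 14 d they were at 20.7, 18.3, 19.9 and 20.8 (log2 fold change -1.92, SE 0.22). Ppp1r3a, the subunit of striated muscle, had 94.9, 93.2, 107 and 116 at 0 d and overlapping values at 1 d. At 28 d it was at 36.2, 34.9, 38.1 and 37.7 (log2 fold change -1.46, SE 0.09).

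Glycogen breakdown was marked by its kinase. Phkg1, the catalytic subunit of phosphorylase kinase in muscle, had 64.5, 66.2, 80.7 and 76.4 FPKM at 0 d and 8.34, 6.73, 12.6 and 13.9 at 3 d (log2 fold change -2.72, SE 0.13). It came back in part, to 23.2, 24.4, 25.4 and 24.5 at 28 d. Phka1, the muscle alpha subunit, had 113, 106, 138 and 141 at 0 d, overlapping values at 1 d and 28.1, 31.6, 36.5 and 34.2 at 28 d (log2 fold change -1.89, SE 0.12). Phkb, the beta subunit shared by many tissues, was called at 3 d only (log2 fold change -0.61, SE 0.11), and with the median-ratio scaling also from 5 to 28 d.

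Pygm, the muscle glycogen phosphorylase, was called at no day. Its FPKM was 9.86, 3.75, 4.62 and 10.4 at 0 d and 8.37, 8.77, 7.59 and 7.18 at 28 d. The level was low and scattered at 0 d, and close to that of Pygb, the brain form, which had a mean of 5.02 ± 0.78 at 0 d and 5.78 ± 0.95 at 28 d. For a gene typical of fibres this was far below Eno3 or Pgam2 on the same per-length scale, and why was not tested.

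The isozymes typical of muscle were set beside the others. Of the 12 muscle isozymes, 11 were called lower at 28 d, all but Pygm, beside 4.1% of all genes, with a median log2 fold change of -1.54 over the 12 and 0.14 over all genes. Of the 9 other isozymes, 1 was called lower, Ldhb, with a median of 0.17. The counts of the muscle and the other isozymes are not a like comparison, because most of the others were low. Aldoc and Eno2, with mean FPKM of 0.13 and 0.35 at 0 d, could not be called lower with the pseudocount of 1. For Pfkp, Pfkl and Hk1 it made such a call harder. Ratios of a muscle form to a counterpart were then taken within each sample, where scaling between samples cancels. The 9 ratios were compared between the 12 samples of 14, 21 and 28 d and the 4 of 0 d by an exact two-sided permutation test, for which the smallest possible p is 0.0011. The p-values are given for each ratio and are not adjusted. Several ratios share a gene.

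Eno3 to Eno1 had a geometric mean ratio of 141 at 0 d and 22.6 at the late days, a log2 change of -2.64 (exact p = 0.0011). Pgam2 to Pgam1 went from 178 to 46.2 (-1.95 on the log2 scale, exact p = 0.0011). Pfkm to Pfkl went from 515 to 108 (-2.25, exact p = 0.0011), and Pfkm to Pfkp from 712 to 189 (-1.91, exact p = 0.0011). Hk2 to Hk1 moved least of these, from 28.2 to 16.6 (-0.76, exact p = 0.0011). In all of them the 12 late samples lay below the 4 control samples.

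With counterparts at very low levels, Eno3 to Eno2 went from 7600 to 807 (-3.24 on the log2 scale, exact p = 0.0011) and Aldoa to Aldoc from 21514 to 7470 (-1.53, exact p = 0.0011). A further 2 ratios overlapped between the groups. Ldha to Ldhb was 4.12 at 0 d and 3.85 late (log2 change -0.10, exact p = 0.50). Pygm to Pygb was 1.31 and 1.46 (log2 change 0.16, exact p = 0.52). In spite of the drop, the muscle form still held most of the RNA. Eno3 made up 99.3% of the summed FPKM of Eno3 and Eno1 at 0 d, 92.7% at 7 d and 95.3% at 28 d.

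The ratio of Ldha to Ldhb changed for a short time between its like values at 0 d and late. It was 4.03, 3.5, 4.42 and 4.62 at 0 d, 9.87, 6.33, 6.69 and 6.72 at 1 d, 20.5, 12.5, 12 and 10.3 at 3 d, and 3.42, 4.74, 3.75 and 3.43 at 5 d. The samples of 1 and 3 d were all above those of 0 d and 5 d. The highest, 20.5, was from the library that stood apart.

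**Figure D5:**
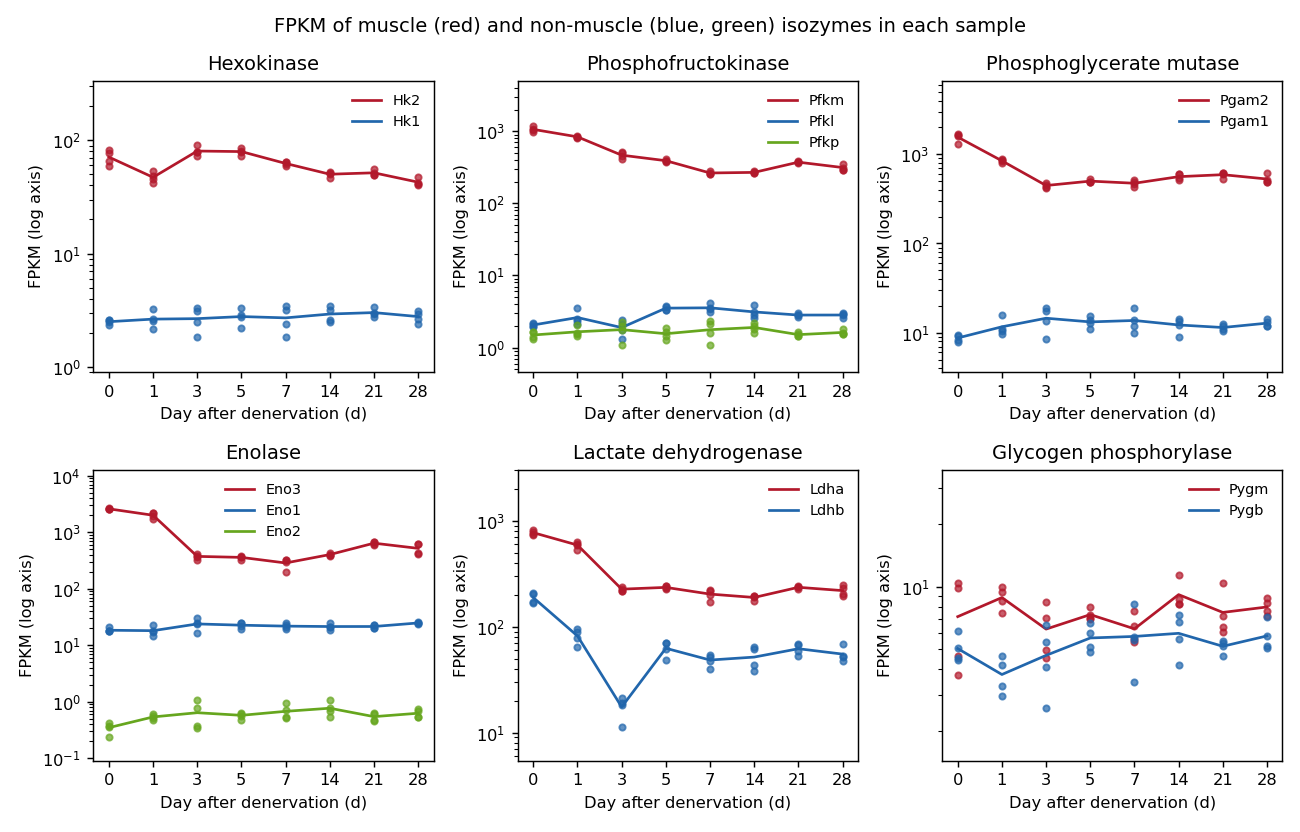
FPKM (log axis) of muscle isozymes (red) and their counterparts (blue, green) in each sample (points) and as group means (lines), by day after denervation, with days evenly spaced. The red lines of Pfkm, Pgam2 and Eno3 drop toward the much lower blue and green ones, Ldha and Ldhb both drop with a dip of Ldhb at 3 d, and Pygm lies close to Pygb throughout.

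Denervated groups were also compared directly, with differences that do not involve the 0 d means, although the spread was estimated from all 32 samples, the 0 d ones included. From 1 to 7 d, 1 member was called higher and 19 lower, beside 9.99% and 3.92% of all genes. The largest were Fbp2 (log2 fold change -3.90, SE 0.16), Ppp1r3c (-3.00, SE 0.22) and Eno3 (-2.82, SE 0.13), and the member that went up was Gbe1 (0.63, SE 0.08). Its call was lost with the median-ratio scaling (0.44), with quantile normalization (0.41) and without mitochondrial genes (0.51), each of which left 0 members higher. From 7 to 28 d, 2 members were called higher and 3 lower, beside 1.5% and 1.46% of all genes. Tpi1 (0.96, SE 0.12) and Eno3 (0.86, SE 0.13) had gone back up in part. Pfkfb3 (-1.15, SE 0.16), Ugp2 (-1.08, SE 0.11) and Pfkfb4 (-0.96, SE 0.10) had gone further down.

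Set against the 4 controls as 1 group, the 12 late samples gave 1 member higher and 22 lower at an unadjusted p under 0.05 and 1.5-fold, beside 14.6% and 4.27% of the 20243 genes in that fit. With an adjusted p under 0.05 in its place, no member was lost. The member called higher was Gbe1 (log2 fold change 0.93), which with the median-ratio scaling was at 0.58 and no longer called, leaving 0 higher. The median log2 fold change was -0.91 over the members and 0.15 over all genes. These late samples and controls are also those of the single-day comparisons, so the results are not separate evidence.

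The rest of the pathway was taken from a list of 39 further genes, of which 34 could be tested. At 3 d 4 of them were called higher and 6 lower, beside 13.2% and 6.03% of all genes, with a median log2 fold change of -0.01. At 28 d the counts were 3 and 6, beside 14.2% and 4.1%, with a median of 0.03. Stbd1, which binds glycogen and links it to the lysosome, had a mean FPKM of 15.6 at 0 d and 101 at 3 d (log2 fold change 2.60, SE 0.12), and 102 at 28 d. Gaa, the lysosomal enzyme that breaks glycogen down, went from 45.0 to 132 at 3 d (1.53, SE 0.10) and was at 53.9 at 28 d. Phka2, the liver alpha subunit of phosphorylase kinase, was low, at 1.75 at 0 d and 4.17 at 3 d (0.91, SE 0.08), and was also called higher at 5, 7, 14 and 28 d, whereas Phka1, Phkb and Phkg1, the subunits among the members, were lower at 3 d.

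Tigar, which breaks down fructose 2,6-bisphosphate, had a mean FPKM of 42.9 at 0 d and 27.6 at 1 d. It was again 42.9 at 3 d, and 5.69 at 28 d. Bpgm, which resembles the mutases Pgam1 and Pgam2, went from 28.8 to 5.06 at 3 d (log2 fold change -2.32, SE 0.09). Prkag3, the AMP kinase subunit of fast fibres, fell from 39.1 to 6.33 at 3 d (-2.46, SE 0.13), then climbed to 74.2 at 28 d.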

How the data were processed

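RNA-seq of 32 GAS muscle samples was analysed. The authors deposited 1 FPKM value per gene and sample, and the submitters' processing notes name HISAT2 2.1.0 and GRCm38; the counter and annotation are not given in the sources used here. FPKM values are relative to all fragments of a library, mitochondrial ones included, which made up between 14.5% and 18.2% at 0 d and between 9.33% and 11.7% at 28 d. Fragments were recovered through exon lengths of GENCODE mouse release 21. The columns of the later groups name the time point, and those headed C, the only group without a day, were taken as 0 d. No column was tied to a single sample of the labels, so replicate numbers follow column order.

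Genes were kept where 4 or more samples had an FPKM of 0.1 or more, and were tested on log2(FPKM + 1) with limma 3.58.1 in R 4.3.3, with a variance trend and 1 fit of all 32 samples (16 for the late days together). Ratios were tested by exact permutation in scipy 1.17.1. On simulated data for 28 d, 50.5% of 200 genes changed 2-fold were recovered, with 4 false calls. The changed genes were drawn from low and high genes alike. All genes were given the same spread, and no shift of the total between days was simulated. These values are therefore not rates for the members. Alternatives were another pseudocount, filters, scalings, fits of only the groups compared, and leaving out each sample. All 36 members are named; values in every sample are given for isozyme pairs and for the genes that change most in each role. The members, the lists and the tests were chosen with earlier results of these data known. Promoters come from RefSeq.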

Additional observations from a re-analysis of the deposited data

Results flagged for a closer look

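In 15 of 296 groups of 4 samples, 1 sample lay far from the other 3 by Dixon's test, and chance alone flags about 1 in 20, that is 15. The lone high FPKM values were 1.83 for Pfkp, 7.85 for Pfkfb4 (both at 28 d), 104 for Gapdh and 17.0 for Pfkfb4 (both at 7 d), 210 for Pgk1 at 14 d, 528 for Pgam2 at 5 d, 20.8 for Eno1 and 361 for Ugp2 (both at 0 d), and 2.67 for the Aldoa row ENSMUSG00000114515 at 3 d. The lone low values were 80.2 for Tpi1 at 7 d, 386 for Pkm and 18.7 for Pfkfb4 (both at 3 d), 174 for Ldha at 14 d, 58.0 for Phkb and 2.70 for Fbp2 (both at 5 d). They came from 12 samples, none with more than 2 of them.

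The effects at 2 time points differed by a direct limma contrast for the following genes, with log2 fold changes. From 1 to 7 d these were -3.90 for Fbp2, -3.00 for Ppp1r3c, -2.82 for Eno3, -2.37 for Gpd1, -2.30 for Tpi1, -1.98 for Pfkfb1, -1.91 for ENSMUSG00000114515, -1.69 for Pfkfb3, -1.66 for Pfkm, -1.54 for Ldha, -1.52 for Phka1 and -1.30 for Phkg1. Smaller ones were -1.12 for Ugp2, -1.06 for Ppp1r3a, -0.96 for Pgk1, -0.87 for Pfkfb4, -0.84 for Pgam2, -0.81 for Gapdh, -0.74 for Ldhb and -0.63 for Gpi1, whereas Gbe1 had 0.63. From 7 to 28 d they were 0.96 for Tpi1, 0.86 for Eno3, -1.15 for Pfkfb3, -1.08 for Ugp2 and -0.96 for Pfkfb4.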

How the results depend on the processing

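Of 184 called member values, none changed direction under any alternative, and 17 lost their call under at least 1 of them. With the median-ratio scaling these included Gbe1 at 14 d (0.56 on the log2 scale) and 28 d (0.46), Ugp2 at 1 d (0.49) and Pfkfb4 at 5 d (0.42). Leaving out 1 sample brought the following just under 1.5-fold. They were Gyg at 14 d (-0.58 without replicate 2 of 0 d, -0.57 without replicate 2 of 14 d) and at 21 d (between -0.57 and -0.56 without replicates 1 or 2 of 0 d or replicate 3 of 21 d), and Gyg at the late days as 1 group (-0.58 without replicate 2 of 0 d). They were also Gpi1 at 7 d (between -0.57 and -0.56 without replicate 3 of 0 d or replicates 3 or 4 of 7 d), Pfkfb4 at 28 d (-0.55 and -0.52 without replicates 3 and 4 of 0 d, -0.58 without replicate 2 of 28 d) and Phkb at 3 d (-0.54 without replicate 4 of 0 d, -0.50 without replicate 2 of 3 d). The others were Pgam1 at 3 d (0.58 without replicate 4 of 0 d, 0.49 and 0.53 without replicates 2 and 3 of 3 d), Pkm at 14 d (-0.58 without replicate 4 of 0 d) and Gbe1 from 1 to 7 d (0.58 without replicate 1 of 1 d or replicate 2 of 7 d). Values that were not called are less certain: of 176, 41 changed sign with the median-ratio scaling, 45 with quantile normalization and 32 in at least 1 fit that left out a sample, and 33, 19 and 16 became called.

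With the median-ratio scaling, 10 members were lower at 1 d, 1 was higher at 5 d and none (0) at 14 d, at 28 d, from 1 to 7 d and at the late days together. With quantile normalization 1 was higher at 5 d, and 0 at 28 d and from 1 to 7 d. Without mitochondrial genes 0 were higher from 1 to 7 d. With a pseudocount of 0.1, which shrinks low genes less, 5 members were higher at 5 d, 4 at 7 d, and 2 at 14 d, at 28 d and at the late days together. Those gained were Eno2, Pfkl and Pgam1. The shares of all genes called were not counted for any of the alternatives.

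Leaving out 1 sample gave between 4 and 7 members lower at 1 d (7 without replicate 1 of 1 d, with Hk2, Pfkfb3 and Tpi1 gained). Higher members ranged from 2 to 3 at 5 d, from 1 to 3 at 7 d (3 without replicate 3 of 0 d, or replicates 2 or 3 of 7 d), from 1 to 2 at 14 d (2 without replicate 4 of 0 d) and from 0 to 2 from 1 to 7 d (0 without replicate 1 of 1 d or replicate 2 of 7 d, 2 without replicate 3 of 7 d). Without the library that stood apart, 18 members were lower at 3 d, not 16. The log2 ratio of Pygm to Pygb ranged from -0.057 to 0.44, with -0.057 without replicate 2 of 0 d and -0.013 without replicate 3; the cause was not tested. The other 8 ratios stayed on the same side of the test's threshold in every alternative. No paired analysis was possible because the columns of the later groups carry letters, not the replicate numbers of the labels. The study also describes no pairing that this would hide. Its mice were sacrificed at each time point and its samples are called biologically independent, so a shared replicate number would not by itself pair samples.

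Depth limits Aldoc most, at 3 fragments or fewer in 3 samples, and counting error is part of its ratio. For Eno2, Pfkl, Pfkp, Hk1, Pygm and Pygb, which lie at low FPKM, the pseudocount of 1 lowers every fold change. With 0.1 in its place Eno2 and Pfkl gained calls, so that a missing call with 1 says little about them. Pfkp, Hk1, Pygm and Pygb stayed uncalled at every day with 0.1 as well.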
